A study of Saccharomyces cerevisiae with 8 samples.

Results

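SIP18, GRE1, HSP12, STF2 and FMP16 encode small yeast proteins known from drying, stress and stationary phase, and they make up 5 of the 6600 protein-coding genes counted. SIP18 and FMP16 were chosen by their low ribosome occupancy in 1 of the 4 strains, ComQuad, so their values in ComQuad are given as a description without a test. GRE1, HSP12 and STF2 were added for what is known of their products, though with earlier results of these data known. All 5 had at least 10 ribosome protected fragments (RPFs) in at least 2 libraries and so entered the test, which covered 5725 genes.

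The libraries came from 4 evolved strains of Saccharomyces cerevisiae, ComQuad (DGY1741), ODIRA_B (DGY1743), Trans (DGY1726) and ODIRA_A (DGY1735), with 2 replicates of each. All derive from the laboratory strain FY4 / S288C, carry a fluorescent and kanamycin resistance reporter beside GAP1, a general amino acid permease gene, and gained a copy number variant (CNV) at GAP1 while growing under glutamine limitation. ComQuad has a complex quadruplication, ODIRA_B and ODIRA_A each have an amplification formed by origin dependent inverted repeats, and Trans has a transposon mediated tandem duplication on chromosome XI, with a translocation that involves VIII, and a second CNV on V. Each strain is a single clone, so a difference between strains is a difference between clones. ComQuad and ODIRA_B were isolated at generation 250 and Trans and ODIRA_A at generation 150. Between these pairs of strains the CNV, the time of isolation and other mutations of each clone cannot be told apart. Cells were grown in glutamine-limited chemostats, and ribosome profiling sequenced the mRNA fragments of 25 to 32 bases that ribosomes shield from nuclease. An RPF value joins the amount of an mRNA and how densely ribosomes load it, and the ancestor, the RNA-seq and the proteomics were not analysed here. A lower value in a culture can come from a lower level in every cell or from fewer cells that use the gene, which cannot be told apart.

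Hydrophilins are very hydrophilic, glycine rich proteins that rise when water is lost, and in yeast several of them help cells to live through drying and rehydration. Many of their genes belong to the general stress response, in which the transcription factors Msn2 and Msn4 bind the stress response element AGGGG when protein kinase A is inactive. Gis1 binds a related sequence, the post-diauxic shift element with the core AGGGAT, in genes switched on as fermentable carbon runs out.

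None of the 5 genes lies on chromosomes XI, V or VIII, so none is on a chromosome named for a CNV above. In the R64-1-1 build, SIP18 (YMR175W) lies on chromosome XIII at 611016 to 611255 on the plus strand and HSP12 (YFL014W) on VI at 107256 to 107585 on the plus strand. GRE1 (YPL223C) lies on XVI at 128632 to 129138, STF2 (YGR008C) on VII at 508110 to 508364 and FMP16 (YDR070C) on IV at 588098 to 588379, all on the minus strand. Each has 1 CDS line, without an intron, and no annotated CDS overlaps one of them. Of all stretches of 25 bases in the 5 coding sequences, 0 occur elsewhere in the genome, so that reads of these genes have 1 possible origin even for the paralogs.

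The sequences upstream of 3 of the genes are shown because SIP18 and GRE1 are paralogs that changed alike over the strains and HSP12 has the most AGGGG matches of the 5. Each line holds the 260 bases from 440 to 181 bases before the start codon, read from the R64 RefSeq genome in the direction of the gene, with AGGGG and AGGGAT in capitals on either strand (CCCCT and ATCCCT are the same letters on the other strand).
SIP18, chrXIII:610576-610835 (plus strand): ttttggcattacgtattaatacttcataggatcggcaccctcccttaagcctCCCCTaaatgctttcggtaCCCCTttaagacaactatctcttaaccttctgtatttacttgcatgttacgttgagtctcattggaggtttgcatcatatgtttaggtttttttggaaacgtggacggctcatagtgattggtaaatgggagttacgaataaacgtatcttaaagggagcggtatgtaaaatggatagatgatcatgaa
GRE1, chrXVI:129319-129578 (minus strand): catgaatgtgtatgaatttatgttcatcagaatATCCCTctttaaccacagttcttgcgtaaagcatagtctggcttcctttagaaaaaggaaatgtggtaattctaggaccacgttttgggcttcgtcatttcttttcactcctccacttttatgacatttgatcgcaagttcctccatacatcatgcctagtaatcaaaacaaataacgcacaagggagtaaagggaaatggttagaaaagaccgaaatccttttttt
HSP12, chrVI:106816-107075 (plus strand): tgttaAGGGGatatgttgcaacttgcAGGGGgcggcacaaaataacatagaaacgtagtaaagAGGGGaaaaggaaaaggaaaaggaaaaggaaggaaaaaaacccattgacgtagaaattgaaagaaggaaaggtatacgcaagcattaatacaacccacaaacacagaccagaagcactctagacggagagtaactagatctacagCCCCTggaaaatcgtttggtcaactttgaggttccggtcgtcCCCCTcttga
In SIP18 the AGGGG letters begin 388 and 369 bases before the start codon. HSP12 had 5 matches, beginning 435, 414, 377, 232 and 190 bases before it, of which those beyond 292 bases lie inside the neighbouring reading frame YFL015C. GRE1 had 0 AGGGG matches in the 500 bases before its start and 1 AGGGAT match at 407 bases. STF2 had 2 AGGGG matches, at 280 and 189 bases, and AGGGAT at 247 bases, and FMP16 had 1 AGGGG match at 201 bases. SIP18 also had AGGGAT at 134 bases, outside the stretch printed. In the window from 250 bases before to 50 after the start, HSP12 had 2 AGGGG matches and STF2 and FMP16 had 1 each, against 0 in SIP18 and GRE1. Of the 6571 promoters of that length in the genome, 21.6% hold at least 1 AGGGG on either strand and 2.92% at least 2. The 500 base window, a length taken after the matches were seen, holds at least 1 in 34.0% of promoters and at least 2 in 8.10%. AGGGAT occurs in 9.34% of the shorter windows and in 15.6% of the 500 base windows, to which the GRE1 match belongs. The Yap1 letters TTACTAA, which read TTAGTAA on the other strand, and the cAMP response element TGACGTCA had 0 matches in the 5 genes, with matches in 7.26% and 0.137% of the shorter windows. The AGGGG and AGGGAT matches do not overlap each other. A match is a description of the letters only.

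**Figure D1:**
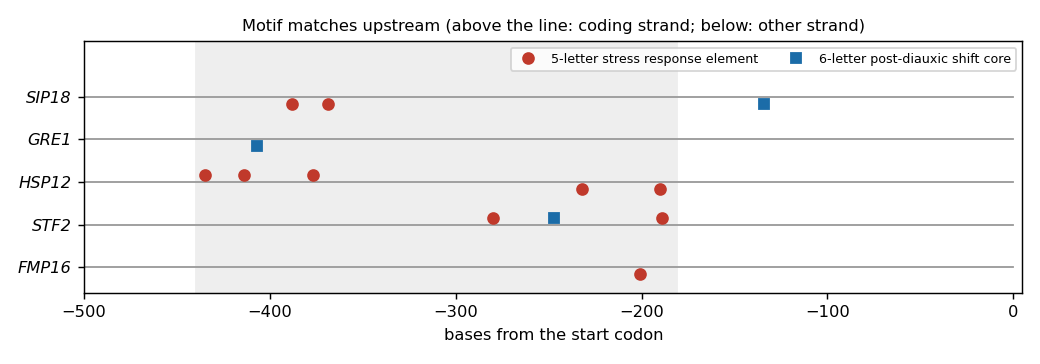
Positions of AGGGG (circles) and AGGGAT (squares) in the 500 bases before the start codon of each gene, in bases from the start. Marks above a line are on the coding strand and marks below on the other, and the shaded stretch runs from 440 to 181 bases before the start; HSP12 has 5 circles and GRE1 has 0.

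Between 3723082 and 11459498 RPFs fell on coding sequence per library, with the fewest in ODIRA_B. Counts were scaled to each library's total with TMM factors (CPM). Where genes are compared with each other TPM is given, which also divides by coding length. The log2 ratio of one replicate to the other was taken over genes above a floor of mean counts, not over all genes. Its SD was 0.166 in ComQuad, 0.217 in ODIRA_B, 0.385 in Trans and 0.275 in ODIRA_A, so Trans had the widest spread among these genes. GAP1, the amplified gene, averaged 16350 ± 284 CPM in ComQuad, 13500 ± 22.6 CPM in ODIRA_B, 8377 ± 590 CPM in Trans and 8307 ± 719 CPM in ODIRA_A (SD, n = 2 each). Strains were compared by edgeR's quasi-likelihood test on the counts of all 8 libraries, with p-values adjusted over 5725 genes and a threshold of 0.05, and the replicates were grown in separate chemostats.

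All 5 genes had their lowest RPF abundance in ComQuad, and the order of the strain means was the same in each, ComQuad, ODIRA_B, Trans and then ODIRA_A. For SIP18 and FMP16 the lowest place follows from their selection. How many of all genes share this order was not counted. In GRE1, HSP12 and STF2, 3 of the 3 genes not picked for ComQuad, the highest ComQuad library was under the lowest of the 6 others, as it was in 17.9% of all genes. SIP18 and FMP16 showed the same, which follows from how they were selected. As a group the 5 genes took 0.180% and 0.205% of coding RPFs in ComQuad, 0.502% and 0.409% in ODIRA_B, 1.03% and 0.806% in Trans, and 1.03% and 1.34% in ODIRA_A. HSP12 alone supplied 64.1% to 83.7% of these RPFs, with the highest share in ComQuad. The sum includes SIP18 and FMP16, whose selection lowers the group share in ComQuad and raises the HSP12 share there.

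**Figure D2:**
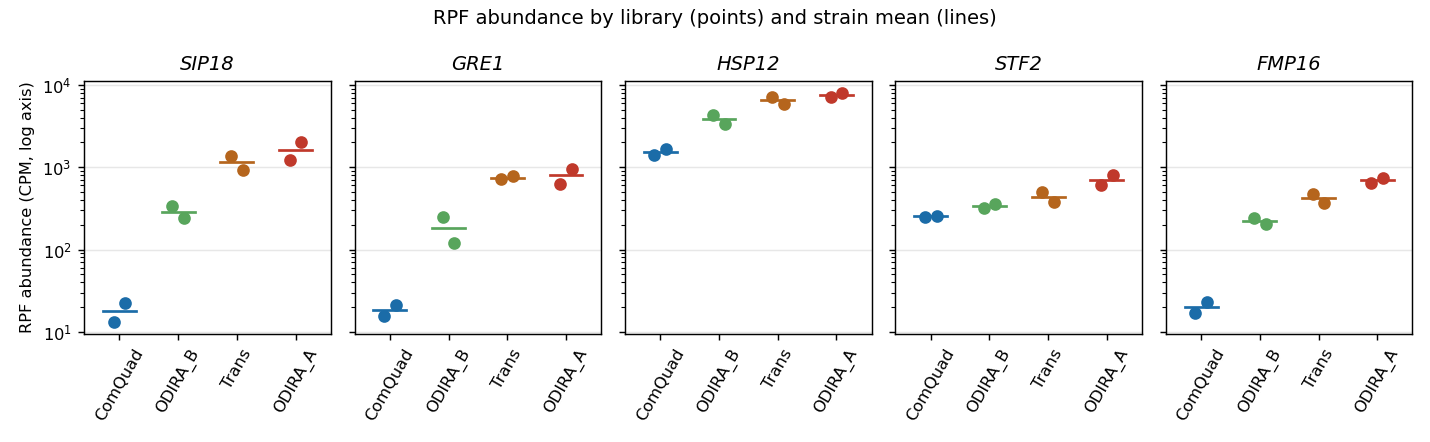
RPF abundance in CPM (log axis) of SIP18, GRE1, HSP12, STF2 and FMP16 in ComQuad, ODIRA_B, Trans and ODIRA_A. Points are libraries and lines are means of 2 replicates; in every panel both ComQuad points lie below all others, and the step is small for STF2.

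SIP18 encodes a phospholipid binding hydrophilin that protects cells during drying and rehydration. It had 158 and 179 RPFs in ComQuad, 1216 and 863 in ODIRA_B, 10917 and 6941 in Trans, and 9662 and 18959 in ODIRA_A. On the CPM scale this was 13.1 and 22.3 in ComQuad, 338 and 241 in ODIRA_B, 1362 and 923 in Trans, and 1232 and 2011 in ODIRA_A. ComQuad and ODIRA_B stood apart from each other and from the rest, whereas the Trans and ODIRA_A libraries overlapped. By mean TPM SIP18 ranked 2005 of 5725 genes in ComQuad, 145 in ODIRA_B, 36 in Trans and 25 in ODIRA_A. The log2 difference in abundance was -4.05 ± 0.36 (SE) for ComQuad against ODIRA_B, -6.03 ± 0.38 against Trans and -6.54 ± 0.39 against ODIRA_A. Against the mean of the other 3 strains, taken on the log2 scale here and below, SIP18 was 46.4-fold lower in ComQuad. This was the second lowest of all tested genes after SHH3. These ComQuad values are those that selected the gene.

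In the fit of all 8 libraries, SIP18 also differed between strains other than ComQuad. It was 3.95-fold lower in ODIRA_B than in Trans (log2 difference -1.98 ± 0.31, edgeR adjusted p = 0.0027) and 5.61-fold lower in ODIRA_B than in ODIRA_A (-2.49 ± 0.32, edgeR adjusted p = 6.1e-04). Against ODIRA_A it ranked 6 from the lowest of all tested genes. Trans and ODIRA_A differed by -0.51 ± 0.30 on the log2 scale, which did not pass the test (edgeR adjusted p = 0.36).

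GRE1 is the paralog of SIP18 from the whole genome duplication and also encodes a hydrophilin. It had 188 and 171 RPFs in ComQuad, 886 and 429 in ODIRA_B, 5716 and 5833 in Trans, and 4912 and 9048 in ODIRA_A. The CPM values were 15.6 and 21.3 in ComQuad, 246 and 120 in ODIRA_B, 713 and 775 in Trans, and 627 and 960 in ODIRA_A. The 2 ODIRA_B libraries lay further apart than those of the other strains on the log scale, but below both Trans and both ODIRA_A libraries. GRE1 was chosen for its known product, though with earlier results of these data known. In ComQuad it was 9.98-fold lower than in ODIRA_B (log2 difference -3.32 ± 0.36, edgeR adjusted p = 1.4e-04). It was 40.6-fold lower in ComQuad than in Trans (-5.34 ± 0.38, edgeR adjusted p = 1.1e-05) and 43.3-fold lower than in ODIRA_A (-5.44 ± 0.38, edgeR adjusted p = 6.4e-06). Against the mean of the other strains it ranked 7 from the lowest, at -4.70 ± 0.35 on the log2 scale (edgeR adjusted p = 9.4e-06). ODIRA_B was 4.07-fold lower than Trans (-2.02 ± 0.32, edgeR adjusted p = 0.0029) and 4.34-fold lower than ODIRA_A (-2.12 ± 0.32, edgeR adjusted p = 0.0017). Trans and ODIRA_A differed by -0.09 ± 0.31 (edgeR adjusted p = 0.89), with overlapping libraries. Without ODIRA_B replicate 1 the difference was -2.71 for ComQuad against ODIRA_B (edgeR adjusted p = 3.2e-04), -2.64 for ODIRA_B against Trans (edgeR adjusted p = 0.0017) and -2.74 for ODIRA_B against ODIRA_A (edgeR adjusted p = 0.0011). Over the alternatives the adjusted p ran from 1.7e-12 to 0.048, from 6.0e-05 to 0.11 and from 1.8e-05 to 0.089 in the same order.

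The paralogs followed each other closely over the 8 libraries (Pearson r of log2 CPM 0.992, a description over libraries that share strains). This was not particular to the pair, as r of SIP18 was 0.996 with HSP12 and 0.993 with FMP16. Per coding length SIP18 was more abundant than GRE1 in every library. The TPM ratio of SIP18 to GRE1 was 1.78 and 2.21 in ComQuad, 2.90 and 4.25 in ODIRA_B, 4.04 and 2.51 in Trans, and 4.16 and 4.43 in ODIRA_A. SIP18 was chosen for its low value in ComQuad, which bears on r and on the ComQuad ratios, and among the other strains the ratios overlapped. Their proteins align over 79 residues with 28 identical, 35.4%, and the longest run of bases shared by their coding sequences is 9.

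HSP12 encodes a small protein that associates with the plasma membrane and stabilizes it under heat, osmotic stress and drying. It was the most abundant of the 5 genes in every library, with 1424 and 1662 CPM in ComQuad, 4322 and 3331 CPM in ODIRA_B, 7223 and 5820 CPM in Trans, and 7171 and 8077 CPM in ODIRA_A. Its rank by mean TPM was 40 in ComQuad, 13 in ODIRA_B, 7 in Trans and 5 in ODIRA_A. So HSP12 stayed among the highest genes in ComQuad although its libraries lay below all others. The log2 difference was -1.31 ± 0.17 for ComQuad against ODIRA_B (edgeR adjusted p = 3.2e-04), -2.08 ± 0.18 against Trans (edgeR adjusted p = 1.5e-05) and -2.31 ± 0.18 against ODIRA_A (edgeR adjusted p = 4.8e-06). Against the mean of the other strains HSP12 was 3.73-fold lower in ComQuad (edgeR adjusted p = 7.5e-06). ODIRA_B lay 1.70-fold below Trans (-0.77 ± 0.17, edgeR adjusted p = 0.012) and 1.99-fold below ODIRA_A (-0.995 ± 0.172, edgeR adjusted p = 0.0024). Trans and ODIRA_A overlapped and did not pass the test (-0.23 ± 0.17, edgeR adjusted p = 0.46).

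STF2 encodes a protein first found with the mitochondrial ATP synthase inhibitors and later shown to act as a hydrophilin needed for survival of drying. Its values were 250 and 258 CPM in ComQuad, 319 and 359 CPM in ODIRA_B, 494 and 377 CPM in Trans, and 601 and 812 CPM in ODIRA_A. No strain overlapped another, and the differences from ComQuad were the smallest of the 5 genes. STF2 was 1.72-fold lower in ComQuad than in Trans (log2 difference -0.78 ± 0.18, edgeR adjusted p = 0.0074) and 2.78-fold lower than in ODIRA_A (-1.48 ± 0.18, edgeR adjusted p = 1.0e-04). The test was not passed against ODIRA_B (-0.42 ± 0.18, edgeR adjusted p = 0.11). Against the mean of the other strains it was 1.85-fold lower in ComQuad (-0.89 ± 0.15, edgeR adjusted p = 0.0011). ODIRA_B was 2.09-fold lower than ODIRA_A (-1.06 ± 0.18, edgeR adjusted p = 0.0019), and it did not pass the test against Trans (-0.36 ± 0.18, edgeR adjusted p = 0.18). Trans lay 0.70 ± 0.18 below ODIRA_A on the log2 scale, just outside the threshold (edgeR adjusted p = 0.057). The call against Trans was lost without ComQuad replicate 1 (edgeR adjusted p = 0.069) or ComQuad replicate 2 (edgeR adjusted p = 0.055), within a range of 1.7e-04 to 0.069 over the alternatives. The comparison of ComQuad with ODIRA_B passed without either Trans library (edgeR adjusted p = 0.027 each), within a range of 5.3e-04 to 0.42.

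TMA10, the paralog of STF2, had another order of strain means. It had 271 and 203 CPM in ComQuad, 419 and 443 CPM in ODIRA_B, 336 and 338 CPM in Trans, and 320 and 326 CPM in ODIRA_A, so ODIRA_B was its highest strain. TMA10 was lower in ComQuad than in ODIRA_B (-0.86 ± 0.15, edgeR adjusted p = 0.0017), Trans (-0.51 ± 0.15, edgeR adjusted p = 0.023) and ODIRA_A (-0.45 ± 0.15, edgeR adjusted p = 0.037), and no other pair passed. The TPM ratio of STF2 to TMA10 was 0.946 and 1.30 in ComQuad, 0.779 and 0.829 in ODIRA_B, 1.51 and 1.14 in Trans, and 1.92 and 2.55 in ODIRA_A. STF2 was therefore the less abundant of the pair per coding length in both ODIRA_B libraries and 1 ComQuad library. The proteins share 54 of 84 aligned residues, 64.3%, and the difference between the 2 genes in their pattern was not tested. Of the other genes around the ATP synthase, STF1, an inhibitor of its hydrolysis, averaged 133 ± 1.03 CPM in ComQuad, 224 ± 4.41 CPM in ODIRA_B, 251 ± 28.7 CPM in Trans and 448 ± 107 CPM in ODIRA_A (SD, n = 2 each). It was lower in ComQuad than in the mean of the other strains (-1.14 ± 0.14, edgeR adjusted p = 1.3e-04). The main inhibitor gene INH1 gave -0.25 ± 0.17 in the same comparison (edgeR adjusted p = 0.29). Without ComQuad replicate 2, 1 of the 3 genes TMA10, STF1 and INH1 was called in it, against 2 with all libraries.

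FMP16 encodes a mitochondrial protein of unknown function that is induced in stationary phase. Its values were 16.8 and 23.2 CPM in ComQuad, 240 and 204 CPM in ODIRA_B, 478 and 363 CPM in Trans, and 643 and 742 CPM in ODIRA_A, from 202 and 186 RPFs in ComQuad and 5043 and 6997 in ODIRA_A. No strain overlapped another. The ComQuad difference by which the gene was picked was -3.49 ± 0.21 on the log2 scale against ODIRA_B, -4.41 ± 0.21 against Trans and -5.13 ± 0.22 against ODIRA_A. Against the mean of the other strains FMP16 was 20.2-fold lower in ComQuad and ranked 15 from the lowest. Outside ComQuad it was 1.89-fold lower in ODIRA_B than in Trans (-0.92 ± 0.18, edgeR adjusted p = 0.0070) and 3.12-fold lower than in ODIRA_A (-1.64 ± 0.19, edgeR adjusted p = 1.9e-04). Trans lay 0.72 ± 0.18 below ODIRA_A on the log2 scale without passing the test (edgeR adjusted p = 0.055).

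The TPM of FMP16 was 1.09 and 0.884 times that of SIP18 in ComQuad, 0.605 and 0.721 times in ODIRA_B, 0.299 and 0.335 times in Trans, and 0.444 and 0.314 times in ODIRA_A. The genes thus had about equal footprint density in ComQuad, and SIP18 exceeded FMP16 in all other libraries. Against HSP12 the range was wider. SIP18 had 0.0127 and 0.0185 times the TPM of HSP12 in ComQuad, 0.107 and 0.0996 times in ODIRA_B, 0.259 and 0.218 times in Trans, and 0.236 and 0.342 times in ODIRA_A. The ODIRA_B ratios were separate from those of Trans and ODIRA_A, and the ComQuad ratios rest on the values that selected SIP18.

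**Figure D3:**
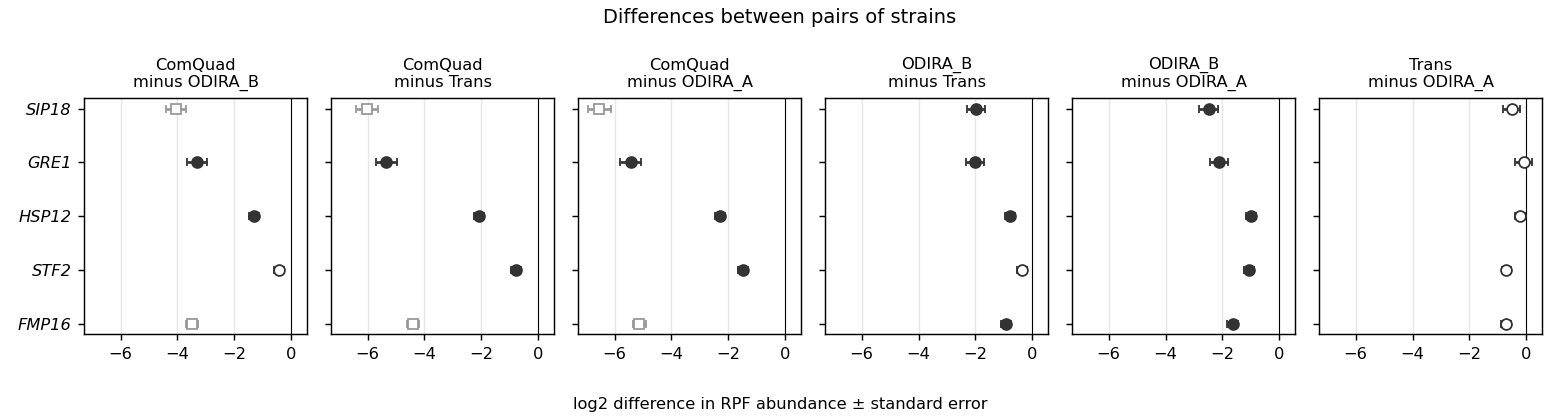
Log2 difference in RPF abundance with its standard error for each gene in the 6 pairs of strains, first named minus second. Filled circles passed edgeR's quasi-likelihood test, open circles did not, and grey squares are the ComQuad values of SIP18 and FMP16, which were not tested; differences lie left of 0 in every panel and none of the 5 passed for Trans minus ODIRA_A.

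Counted over the genes that could be tested, 2 of 3 were lower in ComQuad than in ODIRA_B, where 14.7% of all genes were called lower. Against Trans it was 3 of 3 beside 16.3% of all genes, against ODIRA_A 3 of 3 beside 17.2%, and against the mean of the other strains 3 of 3 beside 16.9%. With all 5 genes open to the test, 4 of 5 were lower in ODIRA_B than in Trans, beside 8.63% of all genes, and 5 of 5 were lower in ODIRA_B than in ODIRA_A, beside 9.99%. Between Trans and ODIRA_A 0 of 5 passed in edgeR, beside 1.01% of all genes called lower in Trans. DESeq2 called 2 of the 5 lower in Trans, STF2 (DESeq2 adjusted p = 0.0038) and FMP16 (DESeq2 adjusted p = 0.0029), beside 1.8% of all genes called lower by that tool. These pairs share libraries and are not independent of each other. As all 5 genes were chosen with earlier results of these data known, the counts are a description.

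The comparison of ODIRA_B with Trans leaned on single libraries. Without Trans replicate 1 the call was lost for SIP18 (edgeR adjusted p = 0.064) and GRE1 (0.069), and without Trans replicate 2 for GRE1 (edgeR adjusted p = 0.11). Without ODIRA_B replicate 2 it was lost for HSP12 (edgeR adjusted p = 0.13) and FMP16 (0.096), and without Trans replicate 2 it was gained for STF2 (edgeR adjusted p = 0.029). Over all alternatives the adjusted p ran from 9.9e-05 to 0.064 for SIP18, 6.0e-05 to 0.11 for GRE1, 1.3e-04 to 0.13 for HSP12, 0.029 to 0.53 for STF2 and 2.1e-05 to 0.096 for FMP16. The sign was the same throughout for these 5. Between Trans and ODIRA_A, leaving out Trans replicate 1 brought STF2 (edgeR adjusted p = 0.0012) and FMP16 (0.0011) past the threshold, out of ranges of 0.0012 to 0.36 and 0.0011 to 0.32.

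The wider stress genes gave a setting for these values. The lists were chosen with results of these data known, so their counts are a description. Against the mean of the other strains, ComQuad was called lower in 22 of 22 genes of the general stress response, beside 16.9% of all genes. Their median log2 difference was -2.10 against -0.01 over all genes. RTN2, a reticulon gene, fell most in that list, with a mean of 45.5 CPM in ComQuad against 387 to 1272 CPM in the other 6 libraries (-3.95 ± 0.20, edgeR adjusted p = 3.9e-07). Of 14 stationary phase and starvation genes 10 were lower and 0 higher, beside 16.9% of all genes in each direction, with a median of -1.92. Among them SSA3, a stress inducible Hsp70 gene, had 11.7 CPM in ComQuad against 78.0 to 448 CPM elsewhere (-4.27 ± 0.34, edgeR adjusted p = 1.6e-05). On this scale GRE1 (-4.70) lay lower than every gene of both lists, HSP12 (-1.90) lay close to the medians, and STF2 (-0.89) nearer to 0. SIP18 and FMP16 were selected on this difference, so their place beside the lists shows nothing further. The genes of the general stress list were lower in ODIRA_B than in Trans in 15 of 22 cases, beside 8.63% of all genes. They were lower in ODIRA_B than in ODIRA_A in 14 of 22, beside 9.99%. Between Trans and ODIRA_A 0 of 22 were called lower or higher, where only 3.65% of all genes were called in either direction. The 14 stationary phase and starvation genes went both ways in these pairs. In ODIRA_B 3 were lower and 3 higher than in Trans, beside 18.7% of all genes called in either direction. Against ODIRA_A 4 were lower and 3 higher in ODIRA_B, beside 22.4%. In Trans 2 were lower and 4 higher than in ODIRA_A, beside the same 3.65%.

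Osmotic stress genes and other hydrophilin genes were counted in the same way. In the same comparison, where 16.9% of all genes were also called higher, 3 of 6 tested osmotic stress genes were lower and 1 was higher, with a median of -0.43. The lower ones were GPP2 (YER062C), which makes glycerol (-1.31 ± 0.14, edgeR adjusted p = 3.5e-05), GPD1, the enzyme before it (-0.57 ± 0.11, edgeR adjusted p = 0.0021), and GRE2 (-0.57 ± 0.12, edgeR adjusted p = 0.0051). HOR7 was higher, with a mean of 3231 CPM in ComQuad against 1223 to 2372 CPM in the other 6 libraries (0.89 ± 0.10, edgeR adjusted p = 4.7e-05). Of 4 other hydrophilin genes, ROQ1 was lower (-1.68 ± 0.16, edgeR adjusted p = 2.4e-05), YNL190W was higher (0.55 ± 0.15, edgeR adjusted p = 0.014) and the other 2 did not pass. Against single strains YNL190W passed for ODIRA_A (0.97 ± 0.19, edgeR adjusted p = 0.0025). It did not pass for ODIRA_B (0.46 ± 0.19, edgeR adjusted p = 0.1) or Trans (0.23 ± 0.18, edgeR adjusted p = 0.38). Without ComQuad replicate 2 the genes called in either direction were 2 in the osmotic list, against 4 with all libraries, and leaving out either ComQuad library left 1 of the 4 hydrophilin genes called, against 2.

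Among 15 regulators of these genes 6 were lower in ComQuad and 1 was higher, beside 16.9% of all genes in each direction, with a median of -0.19. YAK1, a kinase that opposes growth and is held in check by protein kinase A, had the largest fall, with a mean of 46.7 CPM in ComQuad against 133 to 201 CPM in the other libraries (-1.71 ± 0.13, edgeR adjusted p = 3.5e-06). MSN2 was the 1 higher (0.46 ± 0.15, edgeR adjusted p = 0.035), and its libraries overlapped, with a mean of 247 CPM in ComQuad against 144 to 272 CPM. Of 11 genes of Ras and protein kinase A signalling 3 were lower and 0 higher, beside the same 16.9% of all genes and with a median of -0.14, among them RAS1 (-0.95 ± 0.16, edgeR adjusted p = 0.0012) and the regulatory subunit BCY1 (-0.58 ± 0.09, edgeR adjusted p = 7.0e-04). Without Trans replicate 1, 6 of the 11 were called. The footprints of a kinase or factor gene do not measure its activity, and a part of these genes in the levels of the 5 was not tested.

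**Figure D4:**
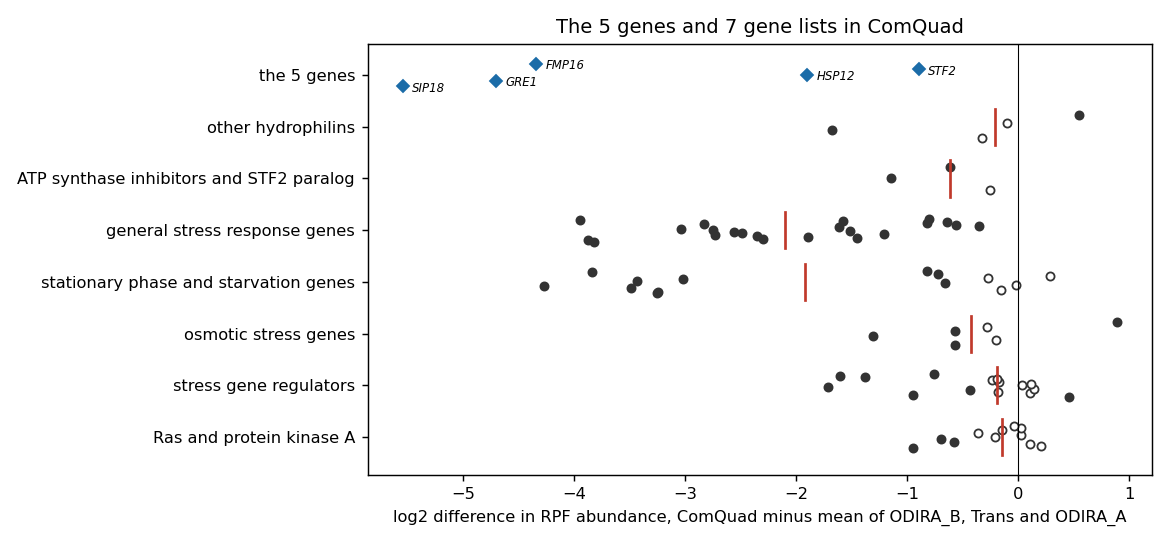
Log2 difference in RPF abundance, ComQuad minus the mean of ODIRA_B, Trans and ODIRA_A, for the 5 genes (diamonds) and the genes of 7 lists (filled where edgeR's test was passed). Red bars are list medians, which run from -2.10 for general stress response genes to -0.14 for Ras and protein kinase A; SIP18 and FMP16 were selected on this difference.

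The genes whose log2 CPM over the 8 libraries was most like that of each of the 5 were looked up by Pearson's r, a likeness that rests mostly on the 4 strain means. For SIP18 and FMP16 these means include the ComQuad values that selected them. For SIP18 they were the Hsp90 gene HSP82 (r = 0.998), YER053C-A (0.997) and the Hsp90 cochaperone gene STI1 (0.997). For GRE1 they were YJR096W, the second Hsp90 gene HSC82 and the Hsp110 gene SSE2 (0.998 each), and for HSP12 they were STI1 (0.999), SIP18 itself (0.996) and HSP82 (0.994). The chaperone genes followed the same order with smaller steps. HSP82 averaged 417 CPM in ComQuad, 1090 CPM in ODIRA_B, 1640 CPM in Trans and 1815 CPM in ODIRA_A, a range of 2.26 on the log2 scale over the libraries, against 7.23 for SIP18. For FMP16 the nearest were GTT2, a glutathione transferase gene, GND2, a minor isoform of 6-phosphogluconate dehydrogenase, and GAD1, glutamate decarboxylase (0.998, 0.997 and 0.997). GND2 averaged 13.6 CPM in ComQuad, 168 CPM in ODIRA_B, 356 CPM in Trans and 513 CPM in ODIRA_A.

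STF2 had fewer genes like it. Among its nearest genes were GRE2 (0.988) and the lipid enzyme gene AYR1 (0.981), and 17 genes had r above 0.95 with it, against 147 to 166 genes for each of the other 4. Among SIP18, GRE1, HSP12 and FMP16 r ran from 0.976 to 0.996, and between STF2 and these it ran from 0.831 to 0.877, over the same 8 libraries.

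The 5 proteins are short. Translation of the coding sequences gave 79 residues for Sip18, 168 for Gre1, 109 for Hsp12, 84 for Stf2 and 93 for Fmp16, against a median of 353 over 6568 yeast proteins. Glycine made up 12.7% of Sip18, 13.1% of Gre1, 11.9% of Hsp12 and 11.9% of Stf2, against a median of 4.87%, and under 1% of yeast proteins have more. Fmp16, with 5.38%, lay near the median. All 5 were strongly hydrophilic, with a mean Kyte-Doolittle hydropathy of -1.55 for Sip18, -1.85 for Gre1, -1.21 for Hsp12, -1.61 for Stf2 and -1.34 for Fmp16, against a median of -0.35. The share of yeast proteins more hydrophilic than these was 0.244%, 0.0457%, 1.75%, 0.183% and 0.883% in the same order. None of the 5 holds a cysteine. Tma10 matched its paralog Stf2 in these features, with 86 residues, 11.6% glycine and a hydropathy of -1.37, although its footprints followed another order of strains.

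**Figure D5:**
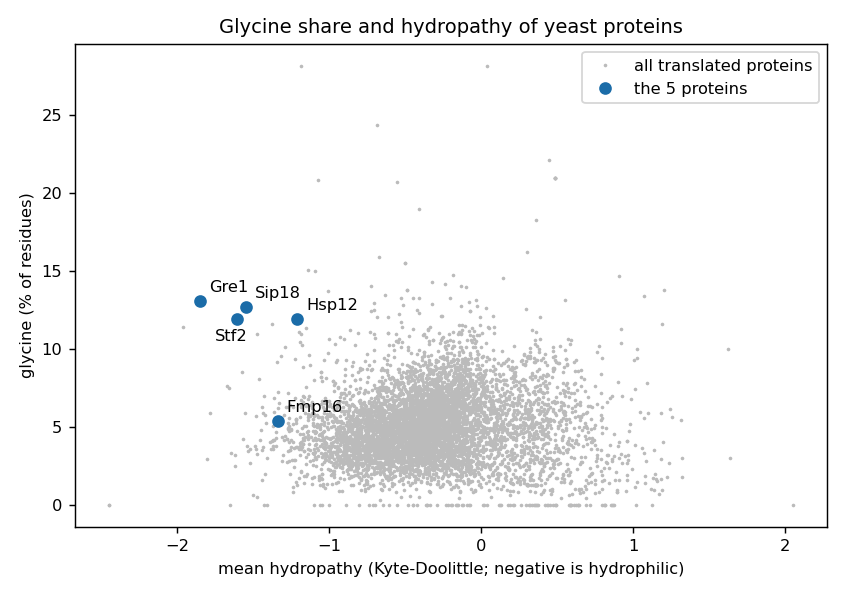
Share of glycine (% of residues) against mean Kyte-Doolittle hydropathy for the 6568 translated yeast proteins (grey) and the 5 proteins (blue). Sip18, Gre1, Hsp12 and Stf2 lie at 11.9% to 13.1% glycine on the hydrophilic side, and Fmp16 lies beside them in hydropathy with 5.38% glycine.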

How the data were processed

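Ribosome profiling libraries of 4 strains with 2 replicates each were used. Per the labels and methods, reads of rRNA, tRNA and snRNA were removed, the rest were aligned with STAR, and bedtools gave the RPFs on the strand of each feature of the R64 annotation. The authors deposited these as whole-number counts without normalization. How duplicate reads or reads with several matches were handled is not given in the sources used here. The lengths of 17 of 17 chromosomes equal those of the reference genome.

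Counts on 6913 CDS lines were summed for 6600 genes, and the 5725 genes with at least 10 counts in at least 2 libraries entered the test of edgeR 4.0.16, run under R 4.3.3 (TMM, robust quasi-likelihood fit of all 8 libraries, 4 residual degrees of freedom, biological coefficient of variation 0.123), with Benjamini-Hochberg adjustment and a threshold of 0.05. The fit was tested on simulated data with known changes. Each pair of strains and ComQuad against the mean of the other 3, taken on the log2 scale, were compared. The SE is the log2 difference divided by the root of F. CPM used TMM factors, and the SD is over 2 replicates. Log2 CPM for likeness had a prior count of 2.

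The 5 genes and all lists were chosen with earlier results of these data known. The named genes are the 5 in every library, the 3 genes most like each of them, TMA10, the called genes of each list with the largest rise and fall in ComQuad, and GAP1. INH1, GPD1, GRE2, BCY1 and SHH3 were named after their values were seen, and 1 gene that the rule names is not reported here. Alternatives were DESeq2 1.42.0, RLE normalization, other filters, gene lines in place of CDS lines, a replicate block, pairs of strains alone and each library left out in turn. Replicate numbers do not pair the libraries by their labels. Promoter and protein features came from the R64 RefSeq genome. The ancestor was not analysed here.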

Additional observations from a re-analysis of the deposited data

How the results depend on the processing

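Of 402 tested results of the 5 genes under the alternatives, 382 kept their direction and side of the threshold, 10 passed it newly, 9 no longer passed and 1 changed sign. Fitting a pair of strains alone gave 2644 called genes for ComQuad against ODIRA_B (1407 in the fit of 8 libraries), 550 for ODIRA_B against Trans (1070) and 49 for Trans against ODIRA_A (209). In such fits STF2 passed for ComQuad against ODIRA_B (-0.42, edgeR adjusted p = 5.3e-04), and HSP12 for ODIRA_B against Trans (-0.76, edgeR adjusted p = 0.051) and GRE1 for ODIRA_B against ODIRA_A (-2.12, edgeR adjusted p = 0.089) did not. The range over the alternatives was 1.8e-05 to 0.089 for that GRE1 result. For Trans against ODIRA_A DESeq2 called 382 genes and 2 of the 5, STF2 (-0.70) and FMP16 (-0.72), and a fit with no filter on low counts also called 2, STF2 (-0.70) and FMP16 (-0.73). The causes were not tested.

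Leaving out 1 library moved the number of called genes between 661 and 2143 for ComQuad against ODIRA_B, 810 and 2495 for ComQuad against Trans, 1035 and 2639 for ComQuad against ODIRA_A, 321 and 1869 for ODIRA_B against Trans, 487 and 1974 for ODIRA_B against ODIRA_A, 30 and 1736 for Trans against ODIRA_A, and 896 and 2612 for ComQuad against the mean of the others (1933 in the fit of 8 libraries). The number of the 5 genes called ran from 2 to 4 for ODIRA_B against Trans and from 0 to 2 for Trans against ODIRA_A. The log2 difference ran from -0.50 to -0.33 for STF2 in ComQuad against ODIRA_B and from -0.96 to -0.57 against Trans. For ODIRA_B against Trans it ran from -2.25 to -1.67 for SIP18, -2.64 to -1.61 for GRE1, -0.98 to -0.61 for HSP12, -0.55 to -0.16 for STF2 and -1.11 to -0.71 for FMP16. For Trans against ODIRA_A it ran from -0.90 to -0.46 for STF2, -0.93 to -0.54 for FMP16 and -0.37 to 0.25 for GRE1, which turned sign without ODIRA_A replicate 2. Where a strain was left with 1 library, that library was taken to vary like the others.

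With the replicate number as a replicate block, 1927 genes were called for ComQuad against the mean of the others and no call of the 5 changed. Same-numbered libraries did not deviate together in all pairs of strains (r from -0.134 to 0.171). By Spearman's rho ties left more than 3 nearest genes, 8 for SIP18, 4 for GRE1, 8 for HSP12, 6 for STF2 and 19 for FMP16. Of the 3 genes named by Pearson's r, 0 were among them for SIP18 and STF2, 1 for GRE1 and HSP12, and 3 for FMP16. With 2 libraries a strain, and the fewest RPFs in ODIRA_B, small differences such as those of STF2 were at the limit of what could be called.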
